A study of Mus musculus with 93 samples.

Results

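R-spondin receptors and the Wnt signalling genes around them were followed through ovarian granulosa cells and oocytes of mice lacking Esr2, the gene of estrogen receptor beta. The 10 genes, of 24047 gene symbols in the count tables, were the R-spondin receptors Lgr4, Lgr5 and Lgr6, the secreted ligands Rspo1 and Wnt4, the Wnt receptor Fzd1, the secreted Wnt inhibitor Sfrp4, the membrane ubiquitin ligases Znrf3 and Rnf43, and the feedback gene Axin2. They were picked by symbol because Lgr6 was higher and Lgr5 was lower in knockout granulosa cells. Knockout against wild type values of the 10 genes in granulosa cells are therefore given below as a description with no test. The 93 libraries fell into 12 groups. Granulosa cells came from Esr2 knockout and wild type mice at 4 weeks (7 and 7 libraries), 7 weeks (5 and 5) and 6 months (6 and 12). Oocytes came from knockout and wild type mice at 4 weeks (7 and 12 libraries), 7 weeks (12 and 5) and 6 months (4 and 11). The labels give neither the knockout allele nor the strain, the donor animals or any pooling. The p-values below therefore measure only the spread between these libraries, some of which may be technical repeats.

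R-spondins are secreted proteins that bind LGR4, LGR5 or LGR6 together with the ligases ZNRF3 and RNF43. The ligases otherwise remove Frizzled receptors from the cell surface, so an R-spondin raises the response of a cell to Wnt ligands, and AXIN2, a scaffold of the beta-catenin destruction complex, is made in response and dampens it. In the mouse, Rspo1 and Wnt4 are needed for normal ovary formation, and Lgr5 is known as a marker of cells of the ovarian surface epithelium.

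Libraries came from the Smart-seq2 protocol, which copies whole transcripts from little RNA, and held 702726 to 6469419 counts in granulosa cells and 1814958 to 7751953 in oocytes. Values below are CPM, each count divided by its library total and scaled to 1000000, and intervals after ± are SD unless named as SE. Esr2 had 0 counts in each of the 18 knockout granulosa libraries, against means of 30.3 ± 9.69, 25.8 ± 6.75 and 11.5 ± 4.64 CPM in wild type granulosa cells at 4 weeks, 7 weeks and 6 months (n = 7, 5 and 12). Knockout oocytes held 1, 4 and 0 Esr2 counts in total at the 3 ages, against means of 88.0 ± 17.4, 69.8 ± 11.9 and 73.2 ± 19.9 CPM in wild type oocytes (n = 12, 5 and 11). The summed level of 10 granulosa markers (Foxl2, Fshr, Amh and others) was 1481 to 6310 CPM in granulosa libraries, and 43.6 to 381 CPM in oocyte libraries, whose tables have rows for only 4 or 5 of them and none for Foxl2, Fshr or Amh. Oocyte markers (Zp3, Gdf9, Bmp15 and 8 others) summed to 12371 to 41353 CPM in oocyte libraries and 1.42 to 815 CPM in granulosa libraries. The 10 listed genes that are high in luteal cells, several of which granulosa cells also make, reached 5935 to 23110 CPM in granulosa libraries. Rspo1 has no row in the 4-week granulosa table or in any oocyte table, and Wnt4 and Fzd1 have none in the oocyte tables of 4 weeks and 6 months.

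On the mouse assembly mm10 with GENCODE vM21 annotation, the receptor genes lie apart from each other: Lgr4 on chromosome 2 (109917647 to 110014257, plus strand), Lgr5 on chromosome 10 (115450311 to 115587780, minus strand) and Lgr6 on chromosome 1 (134983301 to 135105276, minus strand). Rspo1 (124986430 to 125009099) and Wnt4 (137277489 to 137299726) are both on the plus strand of chromosome 4. Znrf3 (5276324 to 5444847, minus strand), Rnf43 (87662722 to 87735539, plus strand) and Axin2 (108920349 to 108950783, plus strand) share chromosome 11. Fzd1 lies on chromosome 5 (4753839 to 4758035, minus strand) and Sfrp4 on chromosome 13 (19623104 to 19632994, plus strand).

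The 250 bases before the annotated start of Lgr6, the receptor gene with higher knockout values in granulosa cells, and of Lgr4, the receptor gene with the highest level in granulosa cells, are shown so that their sequences can be compared. Both are RefSeq sequences of GRCm38.p6, written 5′ to 3′ on the gene's strand, at chr1:135105277-135105526 (minus strand) and chr2:109917397-109917646 (plus strand). Capitals mark matches to GGTCA, a single arm of an estrogen response element, on either strand (read as TGACC on the reverse strand).
Lgr6: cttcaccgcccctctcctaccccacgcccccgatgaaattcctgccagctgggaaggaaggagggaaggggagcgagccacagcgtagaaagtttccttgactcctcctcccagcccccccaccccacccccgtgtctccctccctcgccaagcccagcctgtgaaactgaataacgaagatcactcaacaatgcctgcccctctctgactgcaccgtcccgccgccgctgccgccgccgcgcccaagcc
Lgr4: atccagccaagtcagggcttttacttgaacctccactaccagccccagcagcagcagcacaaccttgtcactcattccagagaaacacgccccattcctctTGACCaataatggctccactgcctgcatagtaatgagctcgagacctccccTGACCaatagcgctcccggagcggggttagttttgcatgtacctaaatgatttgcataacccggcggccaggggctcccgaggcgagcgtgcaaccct
The Lgr6 stretch is 65.2% G and C and has 16 CG pairs, and the Lgr4 stretch is 55.6% G and C with 10 CG pairs. Sequences were found for 7 of the 10 genes and searched beside 32851 windows of the same length. GGTCA had 2 matches before Lgr4, 1 before Fzd1 and none before the other five genes, while 35.2% of all windows held it. The full element GGTCANNNTGACC, which contains GGTCA on both strands and occurs in 0.0639% of windows, and the TCF/LEF motif CTTTGAT, in 3.21% of windows, had no match on either strand before any of the 7.

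Among the receptors, Lgr6 was higher and Lgr5 was lower in knockout granulosa cells at every age, whereas Lgr4, the most abundant of the 3, differed in no constant direction. At 4 weeks the lowest, median and highest Lgr6 levels were 15.5, 23.0 and 54.0 CPM in knockout granulosa cells, against 0, 2.16 and 7.78 CPM in wild type granulosa cells. All 7 knockout libraries were above all 7 wild type libraries. Lgr6 stood at 46.2, 10.5, 33.9, 28.5 and 81.4 CPM in the 5 knockout libraries at 7 weeks, against 0, 1.81, 3.27, 4.08 and 0.775 CPM in the 5 wild type libraries. Again the groups did not overlap. At 6 months Lgr6 was lower in both genotypes, with lowest, median and highest levels of 1.75, 5.88 and 7.67 CPM in knockout libraries and 0, 0.967 and 2.07 CPM in wild type libraries. There 5 of the 6 knockout libraries exceeded every wild type library and the remaining one lay among the upper wild type values. Mean Lgr6 levels were 9.83-fold, 20.2-fold and 5.28-fold higher in knockout cells at 4 weeks, 7 weeks and 6 months. The wild type means under these ratios rest on few reads, with 52, 38 and 50 Lgr6 counts in total. Knockout libraries held 699, 594 and 87. The fitted log2 differences were 3.38 ± 0.50 (SE) at 4 weeks and 4.07 ± 0.59 (SE) at 7 weeks, and Lgr6 did not pass the filter on low counts at 6 months.

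Lgr5 had its highest levels in wild type granulosa cells of 7 weeks. Its 7-week levels were 0, 0, 0.419, 0.941 and 3.13 CPM in knockout libraries, against 8.54, 8.59, 20.1, 25.7 and 19.4 CPM in wild type libraries, and the groups did not overlap. Leaving out the knockout library with 3.13 CPM gave a 7-week log2 difference, knockout minus wild type, of −4.80, against −3.84 ± 0.62 (SE) with all libraries. At 4 weeks the lowest, median and highest Lgr5 levels were 0, 0.515 and 1.10 CPM in knockout libraries and 0, 5.66 and 15.6 CPM in wild type libraries. All 7 knockout values lay below the wild type median, but 1 wild type library was itself at 0. At 6 months Lgr5 levels were 0, 0.685 and 3.58 CPM (lowest, median, highest) in knockout libraries and 0.264, 4.49 and 22.2 CPM in wild type libraries, with a log2 difference of −2.37 ± 0.76 (SE). All 6 knockout values were under the wild type median and 2 of them, at 0, were under every wild type value. Lgr5 rested on few reads: the knockout libraries held 14, 18 and 18 counts in total at the 3 ages, against 165, 306 and 281 in the wild type libraries.

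Lgr4 was detected in every granulosa library. Its lowest, median and highest levels at 4 weeks were 48.1, 83.6 and 146 CPM in knockout libraries and 94.8, 140.0 and 368 CPM in wild type libraries, and 5 of 7 knockout values lay under every wild type value (log2 difference −0.99 ± 0.29, SE). At 7 weeks Lgr4 reached 336, 622, 68.7, 97.5 and 95.3 CPM in knockout libraries and 317, 130.3, 128, 142 and 252 CPM in wild type libraries. The 2 highest knockout values, 336 and 622 CPM, belong to the 2 knockout libraries with the fewest counts (714212 and 1145934), and the highest wild type value, 317 CPM, to the wild type library with the fewest (702726). The part of depth in these values was not tested. The 7-week log2 difference of Lgr4 was 0.27 ± 0.55 (SE), and −0.47 without the knockout library at 622 CPM. Levels at 6 months were 107, 151 and 188 CPM in knockout libraries and 105, 145 and 334 CPM in wild type libraries, which overlapped throughout.

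**Figure D1:**
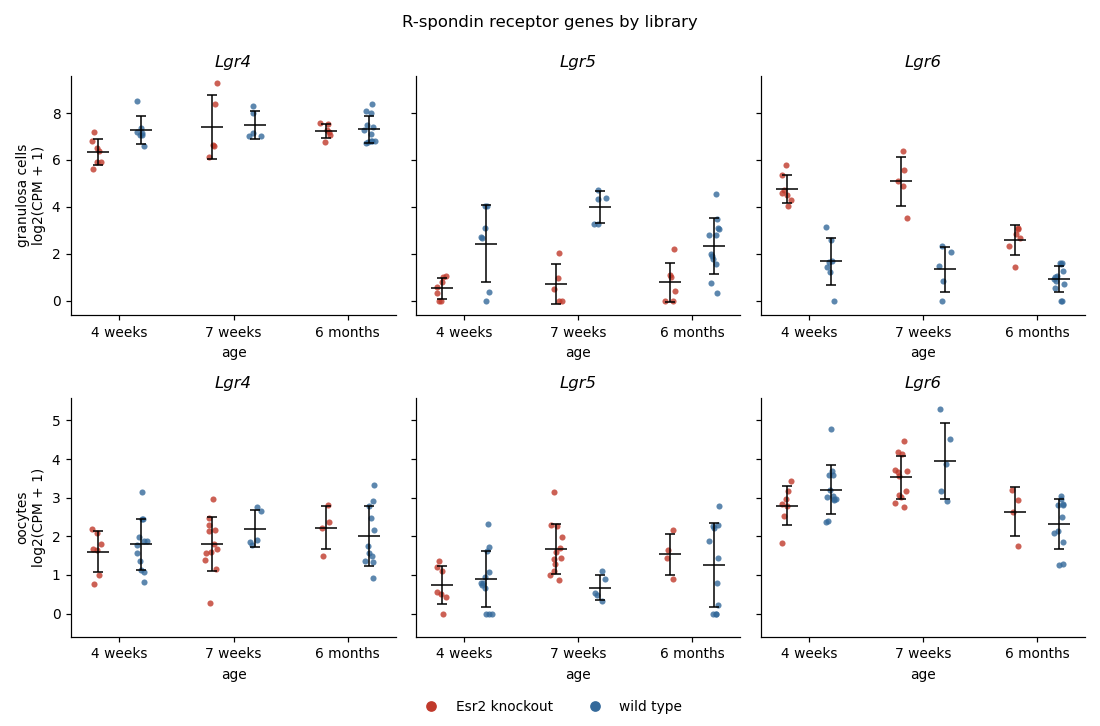
Levels of Lgr4, Lgr5 and Lgr6 in each library, as log2(CPM + 1), in granulosa cells (top row) and oocytes (bottom row) at 4 weeks, 7 weeks and 6 months; red points are Esr2 knockout and blue points wild type libraries, and bars give the mean ± SD. Lgr6 in knockout granulosa cells lies above wild type at 4 and 7 weeks with no overlap, Lgr5 lies below, and in oocytes the genotypes overlap for all 3 genes.

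Libraries whose genotypes did not overlap were found for 1 of the 10 genes at 4 weeks (Lgr6), where 1.47% of all tested genes had groups that did not overlap. The count was 2 at 7 weeks (Lgr5 and Lgr6), with 4.96% of all tested genes, and 0 at 6 months, with 1.38%. Because these contrasts chose the genes, nothing is read from the counts. Since these are bulk libraries, fewer cells of a type and less RNA per cell cannot be told apart.

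Other measures differed between the same granulosa groups. At 7 weeks the summed level of 12 ovarian surface epithelium markers was 140.0, 347, 318, 406 and 474 CPM in knockout libraries, against 871, 1956, 865, 1121 and 581 CPM in wild type libraries, which did not overlap and ran in the direction of Lgr5. At the other ages they overlapped, with 190 to 949.7 CPM in knockout and 233 to 552 CPM in wild type libraries at 4 weeks and 361 to 1233 CPM in knockout and 404 to 1299.8 CPM in wild type libraries at 6 months, where Lgr5 was again lower in knockouts. Over the 42 granulosa libraries the surface marker sum and Lgr5 had r = 0.392, or 0.0771 with group means removed. All 12 of these markers have a row and none was at 0 in all libraries of a group. Taken singly, only Krt8 and Krt18 did not overlap at 7 weeks, and the other markers did. Krt8 ranged from 71.4 to 171 CPM in knockout and 245 to 557 CPM in wild type libraries. Krt18 ranged from 65.8 to 167 CPM in knockout and 313 to 764 CPM in wild type libraries. Another split at 7 weeks was a tilt with exon length: log2 levels changed per doubling of length by 0.0224 to 0.154 in knockout libraries and by −0.172 to −0.0109 in wild type libraries. Lgr5, with 10264 exonic bases, is the longest of the 10 genes. The tilt ran toward higher knockout levels in longer genes, opposite to the direction of Lgr5. It ran in the 7-week direction of the next longest genes, Znrf3 (7893 bases), Lgr6 (6851) and Rnf43 (6558). At 4 weeks 5 erythroid markers summed to 9.23 to 40.9 CPM in knockout and 26.1 to 889.7 CPM in wild type libraries, and 11 immune markers to 242 to 600.1 CPM in knockout and 409 to 2044 CPM in wild type libraries. Granulosa markers at 4 weeks summed to 2709 to 6309.5 CPM in knockout and 1481 to 4092 CPM in wild type libraries. The luteal genes summed at 4 weeks to 5935 to 9585 CPM in knockout and 7793 to 22627 CPM in wild type libraries (medians 8033 and 14933). At 7 weeks their sums were 6480 to 14001 CPM in knockout and 9696.5 to 23110 CPM in wild type libraries (medians 8996 and 17949). At 6 months they were 7064 to 14923 CPM in knockout and 7143 to 13464 CPM in wild type libraries. At 6 months the erythroid sums were 2.58 to 163 CPM in knockout and 30.1 to 876 CPM in wild type libraries, with 4 of the 6 knockout values below every wild type value, and the immune sums were 239 to 1070 CPM in knockout and 253 to 4721 CPM in wild type libraries. The 11 of 13 theca and stroma markers with a row summed there to 17.4 to 309 CPM in knockout and 31.9 to 76.8 CPM in wild type libraries, while the theca marker Cyp17a1 has no row. Of the marker sums, the erythroid one had the highest r with Lgr5 over the same 42 libraries, 0.599, or 0.438 with group means removed. For the luteal sum r was 0.402, or 0.053. The part of these marker and length differences in the levels of the receptor genes was not tested.

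Expressed per kilobase of exon and as shares of the 3 receptors summed, Lgr4 made up most receptor RNA in every granulosa group. In every oocyte group Lgr6 held the largest mean share. The Lgr6 share was 23.7 ± 13.4%, 20.7 ± 15.8% and 2.92 ± 1.09% in knockout granulosa cells at 4 weeks, 7 weeks and 6 months, against 1.58 ± 1.54%, 1.11 ± 0.984% and 0.581 ± 0.440% in wild type granulosa cells. Lgr5 made up 0.352 ± 0.444% in knockout and 5.33 ± 3.22% in wild type cells at 7 weeks, its largest granulosa share. In oocytes Lgr6 held 66.2 ± 14.7%, 68.9 ± 14.1% and 48.1 ± 17.2% in knockouts and 69.3 ± 10.7%, 74.2 ± 11.0% and 45.2 ± 19.6% in wild types. At 6 months Lgr4 held 40.1 ± 20.9% in knockout and 38.4 ± 17.5% in wild type oocytes, which did not differ from Lgr6 beyond the spread. Oocyte shares rest on levels of at most 38.2 CPM in any library.

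Of the ligands, Rspo1, the R-spondin needed for ovary development, was barely detected in granulosa cells. At 7 weeks it stood at 0, 0.873, 0, 0 and 5.40 CPM in knockout libraries and 2.85, 3.17, 0, 0.627 and 0.194 CPM in wild type libraries. At 6 months its range was 0 to 7.60 CPM in knockout and 0 to 4.76 CPM in wild type libraries, with 2 of 6 and 7 of 12 libraries at 0. Rspo1 never passed the filter on low counts.

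Wnt4, a secreted Wnt ligand of granulosa cells, had lower knockout means at all 3 ages. Its lowest, median and highest levels at 4 weeks were 59.4, 94.5 and 135 CPM in knockout and 73.3, 179 and 765 CPM in wild type granulosa cells, and all 7 knockout values lay under the wild type median. The wild type maximum was a single library, the next being at 234 CPM. At 7 weeks the Wnt4 levels were 148, 147, 337, 125 and 126 CPM in knockout and 203, 92.7, 214, 148 and 349.5 CPM in wild type libraries, which overlapped. At 6 months all 6 knockout libraries were again under the wild type median, with 26.9, 61.3 and 89.0 CPM in knockout and 65.1, 154 and 250.3 CPM in wild type libraries. The log2 differences were −1.49 ± 0.36, −0.24 ± 0.34 and −1.09 ± 0.26 (SE) in order of age, and that of 7 weeks was 0.015 without the wild type library at 349.5 CPM.

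Fzd1, a Frizzled receptor for Wnt ligands, had close means in both genotypes at the younger ages and lower values in knockout cells at 6 months. Mean Fzd1 was 32.4 ± 10.1 CPM in knockout and 33.3 ± 14.7 CPM in wild type granulosa cells at 4 weeks, and 40.8 ± 13.4 CPM in knockout and 38.0 ± 17.1 CPM in wild type cells at 7 weeks. At 6 months the lowest, median and highest Fzd1 levels were 3.36, 14.2 and 17.8 CPM in knockout and 14.2, 37.5 and 88.9 CPM in wild type libraries. All 6 knockout values lay below the wild type median and 3 below every wild type value (log2 difference −1.56 ± 0.32, SE).

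Sfrp4, a secreted protein that binds Wnt ligands, was the most abundant of the 10 genes in granulosa cells. Its lowest, median and highest levels were 1178, 1981 and 2356 CPM in knockout and 742, 1382 and 2186 CPM in wild type libraries at 4 weeks. At 6 months they were 1679.8, 1965 and 2827 CPM in knockout and 553, 1263 and 1760.3 CPM in wild type libraries, and 5 of 6 knockout values exceeded every wild type value. At 7 weeks Sfrp4 reached 1563, 1534, 825, 1891 and 2243 CPM in knockout and 1479, 1502, 889, 899 and 949.8 CPM in wild type libraries, where 4 knockout values lay above and 1 below all wild type values. The log2 differences were 0.40 ± 0.27, 0.40 ± 0.29 and 0.97 ± 0.21 (SE) in order of age.

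The ligase gene Znrf3 averaged 43.0 ± 10.9, 50.7 ± 14.7 and 27.1 ± 11.8 CPM in knockout granulosa cells at 4 weeks, 7 weeks and 6 months, and 42.7 ± 10.5, 33.2 ± 15.6 and 20.4 ± 4.68 CPM in wild type cells. These groups overlapped at each age. Its relative Rnf43 was lower, at 3.98 ± 1.81, 6.68 ± 6.47 and 3.41 ± 1.08 CPM in knockout and 2.81 ± 1.64, 2.72 ± 1.68 and 3.50 ± 2.24 CPM in wild type cells. The 7-week knockout mean of Rnf43 included 1 library at 18.0 CPM, while the other four were at 1.75 to 5.49 CPM.

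Axin2, the feedback gene, was low in granulosa cells. At 4 weeks its lowest, median and highest levels were 0.490, 3.30 and 4.51 CPM in knockout and 4.03, 7.55 and 17.0 CPM in wild type libraries, and 6 of 7 knockout values lay below every wild type value (log2 difference −1.48 ± 0.48, SE). At 7 weeks Axin2 stood at 5.60, 5.24, 3.77, 6.27 and 6.26 CPM in knockout and 2.85, 3.85, 11.8, 12.2 and 10.1 CPM in wild type libraries. The 3 higher wild type values belong to the 3 wild type libraries whose summed oocyte markers were 185, 266 and 267 CPM. Those markers summed to 1.42 and 5.43 CPM in the 2 wild type libraries with low Axin2 and to 75.6, 18.3, 18.8, 16.5 and 19.9 CPM in the knockout libraries. At 4 weeks the oocyte markers summed to 10.0 to 21.0 CPM in knockout and 8.63 to 815 CPM in wild type libraries, and there the match seen at 7 weeks was absent. The wild type library with 815 CPM of oocyte markers had Axin2 at the wild type median of 7.55 CPM, and the one with the highest Axin2, 17.0 CPM, had 26.2 CPM of oocyte markers. Axin2 was far higher in oocytes, as described below, and the part of oocyte RNA in the granulosa values was not tested. At 6 months Axin2 averaged 3.57 ± 1.15 CPM in knockout and 5.11 ± 2.03 CPM in wild type cells, which overlapped.

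**Figure D2:**
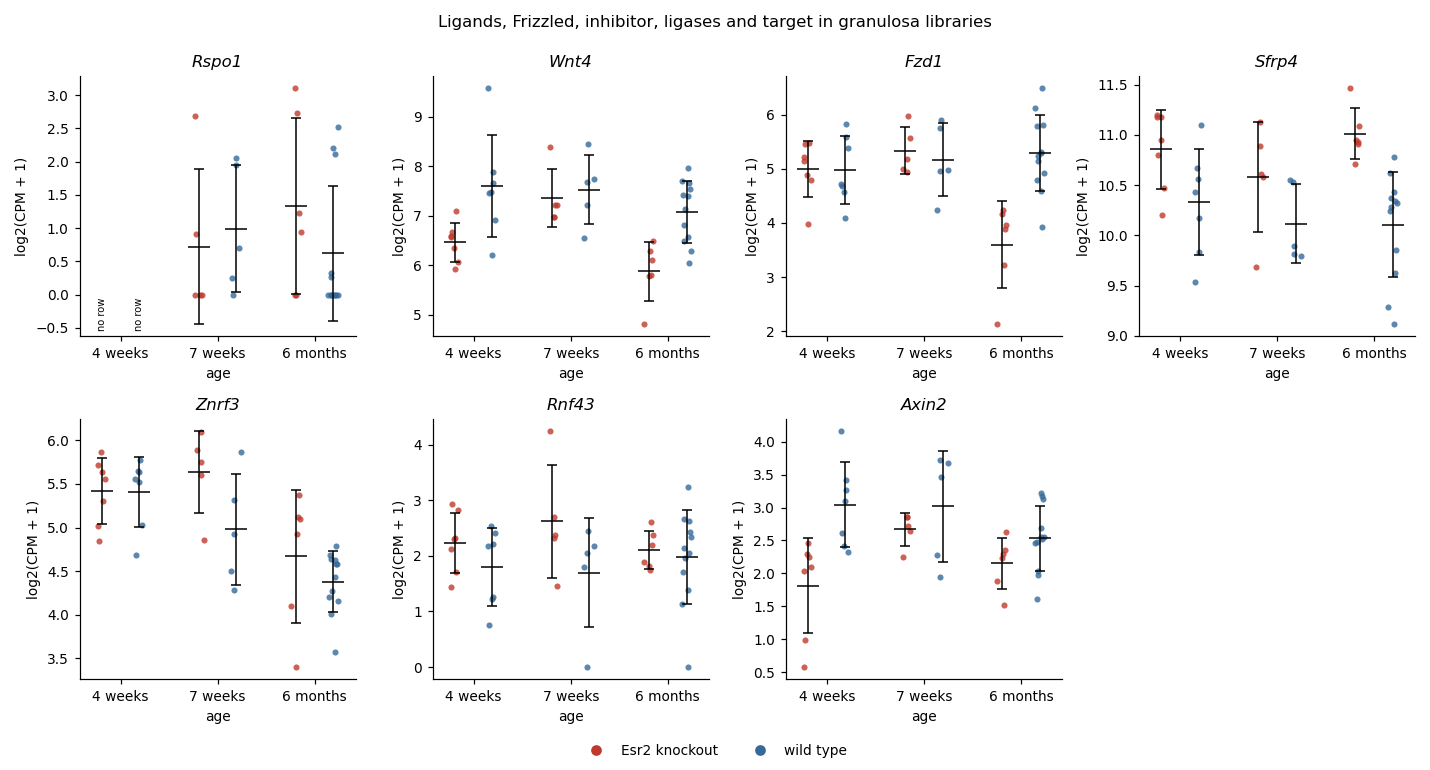
Levels of the 7 other genes in each granulosa library, as log2(CPM + 1), at 4 weeks, 7 weeks and 6 months; red points are Esr2 knockout and blue points wild type libraries, and bars give the mean ± SD. Wnt4 sits lower in knockout cells at 4 weeks and 6 months, Fzd1 at 6 months and Axin2 at 4 weeks, while Sfrp4 sits higher at 6 months.

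Ordered by CPM per kilobase of exon, Sfrp4 led every granulosa group by more than the larger SD, at 456 ± 113, 386 ± 126 and 499.9 ± 94.6 in knockout and 325 ± 116, 274 ± 76.0 and 279 ± 88.2 in wild type cells at 4 weeks, 7 weeks and 6 months. Wnt4 and Lgr4 followed. They were not separated by the larger SD in any wild type group, where Wnt4 stood at 59.5 ± 55.7, 48.1 ± 22.9 and 34.9 ± 14.2 and Lgr4 at 28.6 ± 15.4, 33.0 ± 14.7 and 28.9 ± 12.8 CPM per kb. In knockout cells of 4 weeks Wnt4, at 21.5 ± 5.99 CPM per kb, was above Lgr4, at 14.55 ± 5.89. At 6 months in knockout cells Lgr4, at 26.0 ± 5.30 CPM per kb, was above Wnt4, at 14.7 ± 5.14. Fzd1 and Znrf3 came next in 5 of the 6 groups as in wild type cells of 7 weeks, with 9.04 ± 4.07 and 4.20 ± 1.98 CPM per kb, and in the reverse order in knockout cells of 6 months. The sixth place was held by Lgr6 in knockout cells of 4 and 7 weeks, at 4.16 ± 2.02 and 5.85 ± 3.85 CPM per kb, which did not differ from Znrf3 beyond the spread. In wild type cells Lgr6 was last at each age, at 0.423 ± 0.385, 0.290 ± 0.247 and 0.150 ± 0.105 CPM per kb, and its neighbours at that end, Rnf43 and Rspo1, did not differ from it beyond their spread.

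In oocytes, whose values took no part in choosing the genes, none of the 10 genes passed a test of knockout against wild type at any age. With edgeR's quasi-likelihood test and Benjamini-Hochberg adjustment over all genes, 0 of 5 testable genes passed at 4 weeks, 0 of 7 at 7 weeks and 0 of 6 at 6 months, where 0.00924%, 0.154% and 0.00818% of all tested genes passed. At an unadjusted p under 0.05 the counts were 0, 2 and 0, and DESeq2 called 0 at each age.

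The 2 genes under an unadjusted 0.05 were Lgr5 and Rnf43 in 7-week oocytes. The lowest, median and highest Lgr5 levels were 0.835, 1.85 and 7.82 CPM in the 12 knockout oocyte libraries, against 0.439, 0.249, 0.854, 0.401 and 1.15 CPM in the 5 wild type libraries. All 12 knockout values were above the wild type median and 9 were above every wild type value. The log2 difference, knockout minus wild type, was 2.10 ± 0.63 (SE, adjusted p = 0.155), opposite in sign to granulosa cells of the same age, and it rested on 148 and 14 counts in total. Rnf43 levels were 0, 9.80 and 16.0 CPM (lowest, median, highest) in knockout and 1.76, 1.25, 6.40, 1.20 and 9.98 CPM in wild type oocytes. For Rnf43, 11 of 12 knockout values exceeded the wild type median, with a log2 difference of 1.24 ± 0.55 (SE, adjusted p = 0.267). At 4 weeks and 6 months the mean Lgr5 levels were 0.753 ± 0.583 and 2.04 ± 1.10 CPM in knockout oocytes and 1.10 ± 1.17 and 2.05 ± 2.07 CPM in wild type oocytes.

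Lgr6, the receptor with the large granulosa difference, averaged 6.28 ± 2.30, 11.3 ± 4.83 and 5.63 ± 2.51 CPM in knockout oocytes at 4 weeks, 7 weeks and 6 months, and 9.30 ± 5.94, 17.7 ± 13.0 and 4.44 ± 2.12 CPM in wild type oocytes. Its log2 differences were −0.55 ± 0.31, −0.53 ± 0.35 and 0.41 ± 0.46 (SE), with edgeR adjusted p = 0.998, 0.435 and 0.999. Axin2 was the one abundant gene of the set in oocytes, with lowest, median and highest levels of 162, 227 and 329 CPM in knockout and 123, 202 and 312 CPM in wild type oocytes at 4 weeks. Its log2 differences were 0.06 ± 0.15, 0.05 ± 0.20 and 0.12 ± 0.26 (SE) in order of age. Their sign changed at 4 weeks without knockout replicate 4 (−0.019), and at 7 weeks without knockout replicate 1 or wild type replicate 2, 3 or 4 (−0.055 to −0.010). Per kilobase, Axin2 led every oocyte group by more than its SD, at 40.3 ± 10.9, 52.4 ± 13.1 and 20.1 ± 3.19 CPM per kb in knockouts and 38.1 ± 8.82, 55.0 ± 21.3 and 19.9 ± 7.61 in wild types. All other genes of the set were at 2.58 CPM per kb or less there, and nearly all neighbours in their order did not differ beyond their spread.

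How far the knockout effect changed between ages was tested in oocytes for 7 of the 10 genes. No difference between ages passed the edgeR test, in which 0% of all genes were called for each of the 3 pairs of ages. The unadjusted counts were 2 for 7 weeks against 4 weeks (Lgr5 and Rnf43) and 0 for the other two pairs, and DESeq2 called 0. The largest was the Lgr5 effect at 7 weeks minus that at 4 weeks, 2.66 ± 1.14 (SE, edgeR adjusted p = 0.388).

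Lgr4, Sfrp4 and Znrf3 were higher in wild type granulosa cells than in wild type oocytes at every age, and Axin2 was lower. In wild type mice, granulosa against oocyte libraries were tested for the 8 genes other than Lgr5 and Lgr6. At 4 weeks 3 of 5 testable genes were higher and 1 was lower in granulosa cells, with 83.3% of all tested genes called by edgeR. At 7 weeks 5 of 7 were higher and 1 lower, with 77.2% of all genes called, and at 6 months 3 of 5 were higher and 2 lower, with 85.1% called. These shares are near the background.

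Lgr4 was higher in wild type granulosa cells than in oocytes by 5.47 ± 0.33, 5.11 ± 0.57 and 4.78 ± 0.31 on the log2 scale (SE) at 4 weeks, 7 weeks and 6 months. In CPM these were means of 168 ± 90.6, 194 ± 86.2 and 170.0 ± 75.5 in granulosa cells and 2.85 ± 1.98, 3.77 ± 1.63 and 3.59 ± 2.58 in oocytes. Sfrp4 showed the largest differences at each age, 7.90 ± 0.87, 7.19 ± 1.00 and 8.92 ± 0.66, and Znrf3 smaller ones, 2.49 ± 0.27, 1.96 ± 0.43 and 1.83 ± 0.27. All 9 of these values passed the edgeR test, with adjusted p of at most 1.63e-04. Wnt4 and Fzd1 could be compared at 7 weeks, where they were higher in granulosa cells by 6.30 ± 0.80 and 5.61 ± 0.77.

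Axin2 ran the other way. Wild type granulosa libraries held 4.03 to 17.0, 2.85 to 12.2 and 2.06 to 8.35 CPM at the 3 ages and wild type oocyte libraries 123 to 312, 222 to 510.5 and 29.5 to 175 CPM, so that no granulosa library reached any oocyte library. The log2 differences, granulosa minus oocyte, were −5.19 ± 0.30, −5.56 ± 0.35 and −5.14 ± 0.22 (SE, edgeR adjusted p = 9.31e-18, 1.09e-14 and 2.79e-22). Rnf43 was lower in granulosa cells at 6 months (−1.05 ± 0.44, edgeR adjusted p = 0.0269) and did not pass at 4 weeks (−1.20 ± 0.58, 0.0564) or 7 weeks (−0.90 ± 0.69, 0.233). For Rnf43, DESeq2 gave adjusted p = 0.0768 at 6 months and 0.0431 at 4 weeks. As a description, Lgr6 was lower in wild type granulosa cells than in wild type oocytes by −2.20 ± 0.43, −3.39 ± 0.57 and −2.78 ± 0.39 on the log2 scale (SE), and Lgr5 differed by 4.18 ± 0.72 at 7 weeks and 0.58 ± 0.62 at 6 months.

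**Figure D3:**
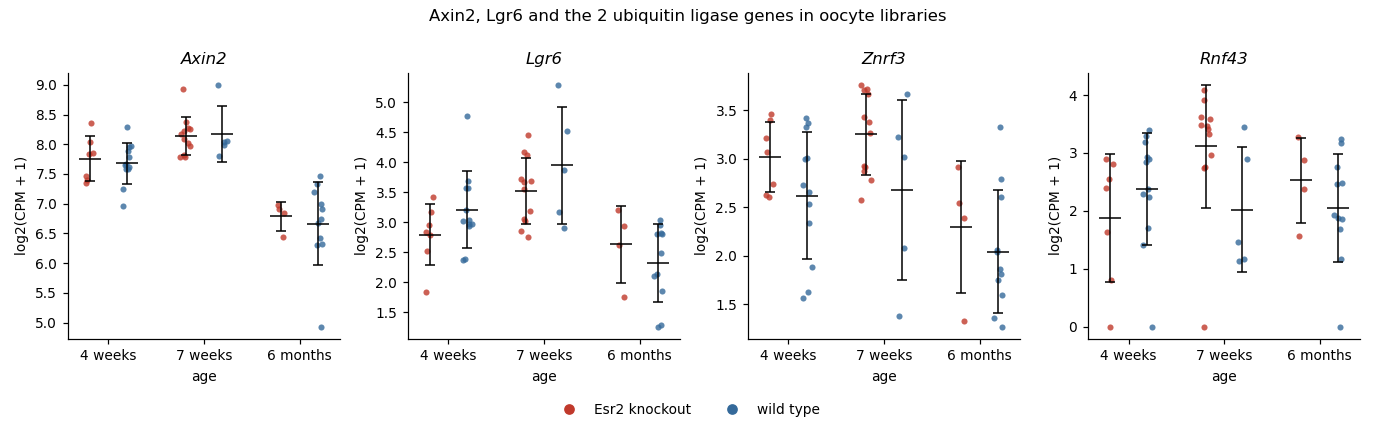
Levels of Axin2, Lgr6, Znrf3 and Rnf43 in each oocyte library, as log2(CPM + 1), at 4 weeks, 7 weeks and 6 months; red points are Esr2 knockout and blue points wild type libraries, and bars give the mean ± SD. Axin2 is lower at 6 months than at either younger age in both genotypes, and the genotypes overlap for each gene at each age.

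At 6 months Axin2 was lower in oocytes of both genotypes than at either younger age, and Lgr6 was lower in wild type oocytes. Axin2 in wild type oocytes had lowest, median and highest levels of 123, 202 and 312 CPM at 4 weeks, stood at 510.5, 253, 266, 222 and 263 CPM at 7 weeks, and had lowest, median and highest levels of 29.5, 106 and 175 CPM at 6 months. The 6-month values overlapped those of 4 weeks and lay below all those of 7 weeks. Its 6-month level in wild type oocytes was lower than at 7 weeks by −1.27 ± 0.19 on the log2 scale (SE, edgeR adjusted p = 4.34e-06) and than at 4 weeks by −0.93 ± 0.16 (2.18e-05). In knockout oocytes Axin2 at 6 months stood at 119, 113, 85.4 and 125 CPM, lower than at 7 weeks by −1.22 ± 0.23 (edgeR adjusted p = 6.07e-04) and than at 4 weeks by −0.88 ± 0.24 (0.0313). The last of these calls was lost when 6-month knockout replicate 1, 2 or 3 was left out (adjusted p = 0.0923, 0.0919 and 0.169).

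Lgr6 in wild type oocytes had lowest, median and highest levels of 4.16, 7.18 and 26.5 CPM at 4 weeks, stood at 38.2, 6.47, 22.0, 8.02 and 13.6 CPM at 7 weeks, and had lowest, median and highest levels of 1.40, 4.64 and 7.25 CPM at 6 months. The 6-month values overlapped both younger ages. It was lower at 6 months than at 7 weeks by −1.75 ± 0.36 (SE, edgeR adjusted p = 3.04e-04) and than at 4 weeks by −0.99 ± 0.30 (0.0155). In knockout oocytes the same Lgr6 differences were −0.83 ± 0.42 (0.217) and −0.05 ± 0.44 (0.972), which did not pass. Whether the age differences of Lgr6 depend on genotype was tested as the change in knockout effect described above, and no such test passed.

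These were 2 of 7 testable genes in wild type oocytes for each of the 2 contrasts, against 25.7% of all genes called between 6 months and 7 weeks and 15.4% between 6 months and 4 weeks. In knockout oocytes 1 of 7 passed in each, against 5.81% and 2.27% of all genes. Between 7 and 4 weeks 0 of 7 were called by edgeR in either genotype, against 0.824% of all genes in wild type and 0.0223% in knockout oocytes, with 1 and 3 at an unadjusted p under 0.05 and 0 by DESeq2. Each age is a table of its own, and the labels give no run dates, so that age and any batch cannot be told apart.

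In wild type granulosa cells, 1 of 7 testable genes other than Lgr5 and Lgr6 changed. Znrf3 was lower at 6 months, at 20.4 ± 4.68 CPM, than at 4 weeks, at 42.7 ± 10.5 CPM, by −0.98 ± 0.22 on the log2 scale (SE, edgeR adjusted p = 0.00353), where 8% of all genes were called. No gene of the set was called by edgeR between 6 months and 7 weeks (1.36% of all genes, 1 at an unadjusted p under 0.05, 0 by DESeq2) or between 7 and 4 weeks (0% of all genes, 0 unadjusted, 0 by DESeq2).

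In knockout granulosa cells Wnt4 and Fzd1 fell at 6 months relative to 7 weeks, with 2 of 7 genes called where 22% of all genes were. The Wnt4 levels at 6 months, 26.9 to 89.0 CPM, lay below all of those at 7 weeks, 125 to 337 CPM, with a log2 difference of −1.23 ± 0.37 (SE, edgeR adjusted p = 0.0164). Without 7-week knockout replicate 3, the library at 337 CPM, it was −0.88 (adjusted p = 0.112). Fzd1 levels at 6 months, 3.36 to 17.8 CPM, also lay below all of those at 7 weeks, 29.6 to 61.6 CPM (log2 difference −1.37 ± 0.36, edgeR adjusted p = 0.00721). These age contrasts share their libraries with the genotype contrasts that chose the genes, so they are not independent of that choice.

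Relative to 4 weeks, Fzd1 in knockout granulosa cells was lower at 6 months by −1.07 ± 0.33 (SE, edgeR adjusted p = 0.0243) and Lgr4 was higher by 1.07 ± 0.36 (0.0401), 2 of 7 genes against 13.8% of all genes. The Lgr4 call did not hold in a fit of the knockout groups alone (adjusted p = 0.0817). Between 7 and 4 weeks edgeR called 0 of 7 genes in knockout cells, against 0.0419% of all genes, with 3 at an unadjusted p under 0.05 and 1 by DESeq2, Lgr4 (edgeR log2 difference 1.46 ± 0.38, adjusted p = 0.201, DESeq2 adjusted p = 0.0250), whose 7-week mean rests on the 2 shallowest knockout libraries. As a description, Lgr6 in knockout granulosa cells was lower at 6 months than at 7 weeks by −2.64 ± 0.52 and than at 4 weeks by −2.16 ± 0.49 on the log2 scale (SE).

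The rest of the pathway was followed through 110 other genes, of which 103 have a row in at least 1 table: 23 ligand and secretion genes, 15 receptors, 19 inhibitors, 18 cytosolic transducers, 15 nuclear factors, 12 targets and 8 genes of the planar polarity branch. In granulosa cells more of them passed the test between knockout and wild type at 6 months than at the younger ages. The share of all tested genes that passed was also largest at 6 months, and the ages differ in their numbers of libraries. At 4 weeks 1 of 66 testable genes was called higher by edgeR and 0 lower, where 2.33% of all tested genes were called. At 7 weeks 0 of 66 were called by edgeR, against 0.8% of all genes, with 18 at an unadjusted p under 0.05 and 4 by DESeq2. At 6 months 5 of 67 were higher and 8 lower, against 12.6% of all genes.

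The 4-week call was Wls, which carries Wnt ligands to the cell surface. Its lowest, median and highest levels were 185, 215 and 278 CPM in knockout and 43.2, 138 and 157 CPM in wild type granulosa cells, which did not overlap, with a log2 difference of 0.93 ± 0.25 (SE, edgeR adjusted p = 0.0474). The Wls call was lost when any of 11 of the 14 libraries was left out, each of the 7 knockout libraries and wild type replicates 2, 3, 5 and 7 (adjusted p = 0.0524 to 0.112), and with size factors by relative log expression (0.0532) or no filter on low counts (0.0587). At 7 weeks the median log2 difference of the 66 genes was 0.36, against 0.01 over all tested genes, and 51 of the 66 were above 0. The length tilt and the summed surface epithelium markers split the same 7-week groups, and their part in that shift was not tested.

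At 6 months the median of the 67 genes was −0.31, against −0.02 over all tested genes. The erythroid, immune and theca marker sums given above differed in range between the same 6-month groups. The length tilt of 6-month knockout libraries was −0.146 to 0.0475, with a median of −0.0612. In wild type libraries it was −0.151 to 0.185, with a median of 0.0113, and the groups overlapped. The part of these marker and length differences in that median of the 67 genes and in the calls below was not tested. Sfrp2, a secreted inhibitor related to Sfrp4, was higher in knockout cells, at 214, 248 and 389.5 CPM (lowest, median, highest) against 90.2, 126 and 179.7 CPM in wild type cells (log2 difference 1.19 ± 0.18, edgeR adjusted p = 1.66e-04). The 2 groups did not overlap. Porcn, the acyltransferase that prepares Wnt ligands for release, was higher by 0.95 ± 0.24 (0.0133), as was Amhr2, the receptor for anti-Müllerian hormone, by 0.87 ± 0.22 (0.0132). Amhr2 also belongs to the 10 granulosa markers. Their 6-month sums were 1833 to 5452 CPM in knockout and 1743 to 3952 CPM in wild type libraries (medians 2858 and 2092.5). The part of that difference in the Amhr2 call was not tested.

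Fzd2, a Frizzled receptor like Fzd1, was lower in 6-month knockout cells with no overlap, at 0.645, 1.40 and 2.56 CPM against 3.19, 7.63 and 13.0 CPM in wild type cells (log2 difference −2.18 ± 0.39, edgeR adjusted p = 0.00101). Fst, which encodes the activin-binding protein follistatin, stood at 55.2, 77.3 and 89.6 CPM in knockout and 86.2, 192 and 378 CPM in wild type cells (log2 difference −1.41 ± 0.25, edgeR adjusted p = 0.00100). All 6 knockout values of both genes lay below the wild type median. The cytosolic genes Csnk1e, a casein kinase, Tnks2, a tankyrase that marks axins for breakdown, and Usp34, a deubiquitinase, were lower by −0.75 ± 0.19, −0.96 ± 0.26 and −0.74 ± 0.20 (edgeR adjusted p = 0.0127, 0.0198 and 0.0218). The calls of Amhr2, Tnks2 and Usp34 were each lost without 1 or more of knockout replicates 1 to 3 (adjusted p = 0.0504 to 0.0552).

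**Figure D4:**
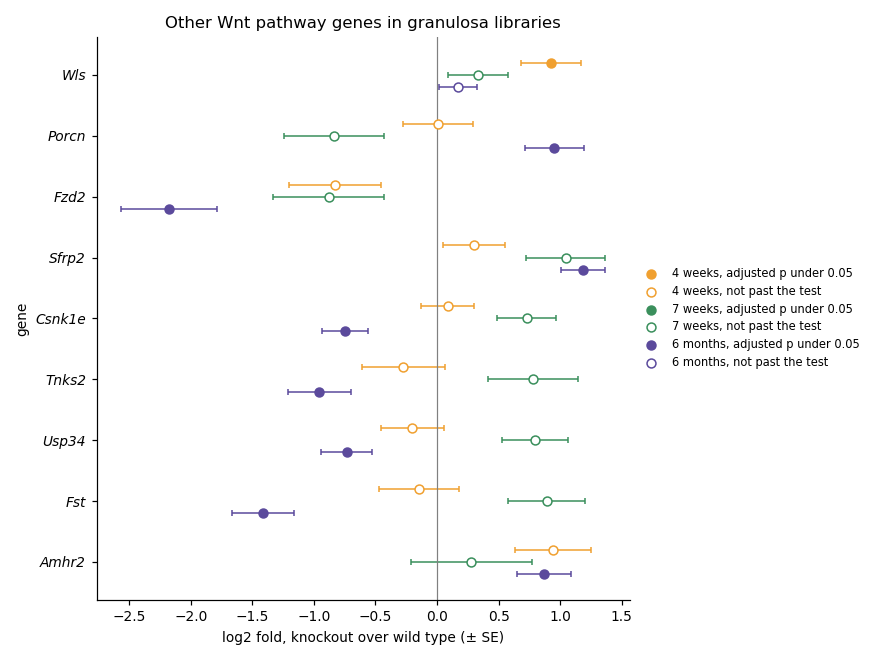
Fitted log2 difference, knockout minus wild type, with its SE, of 9 other Wnt pathway genes in granulosa cells at 4 weeks, 7 weeks and 6 months; filled points have an edgeR adjusted p under 0.05. At 6 months 8 of the 9 genes are filled, and Csnk1e, Tnks2, Usp34 and Fst lie below 0 at 6 months and above 0 at 7 weeks.

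The difference between ages in the knockout effect on these genes was itself tested in granulosa cells. Between 6 months and 7 weeks, 4 of 73 genes had a higher and 11 a lower effect at 6 months, against 10.4% of all tested genes. Fst (−2.30 ± 0.46, edgeR adjusted p = 0.00869), Csnk1e (−1.48 ± 0.30, 0.00869), Lrp6, a Wnt co-receptor (−1.41 ± 0.32, 0.0126), and Usp34 (−1.53 ± 0.36, 0.0129) were among those lower. Porcn had a higher effect at 6 months by 1.74 ± 0.44 (0.0165). All 13 other receptor and co-receptor genes had negative values, with a median of −1.37, and 3 of them passed. Fst averaged 351 ± 68.8 CPM in knockout and 183 ± 96.8 CPM in wild type cells at 7 weeks, and 73.5 ± 12.3 CPM in knockout and 219 ± 102 CPM in wild type cells at 6 months. The 7-week libraries in this contrast carry the length tilt given above, with higher values in knockout libraries. At 6 months the median tilt was lower in knockout than in wild type libraries (−0.0612 and 0.0113), with overlap. The part of the tilt at either age was not tested. Without 7-week wild type replicate 2 the calls over the 3 pairs of ages numbered 9, and without 7-week knockout replicate 3 or wild type replicate 4 they numbered 11, against 17 with all libraries.

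Between 6 months and 4 weeks 1 of 73 genes had a higher effect (Id2, 1.37 ± 0.34, edgeR adjusted p = 0.0371) and 1 a lower one (Tcf7l2, −1.28 ± 0.32, 0.0394), against 0.657% of all genes. Between 7 and 4 weeks edgeR called 0 of 73, against 0.00699% of all genes, with 20 at an unadjusted p under 0.05 and 0 by DESeq2. In oocytes edgeR called 0 of 46, 48 and 48 other pathway genes between knockout and wild type at 4 weeks, 7 weeks and 6 months, with 0, 5 and 0 at an unadjusted p under 0.05 and 0 by DESeq2. Their knockout effect differed between ages for 0 of 49 by edgeR, with 1, 0 and 1 at an unadjusted p under 0.05 for 7 weeks against 4 weeks, 6 months against 7 weeks and 6 months against 4 weeks, and 0 by DESeq2.

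The genes whose levels tracked each receptor most closely were read from Pearson's r of log2(CPM + 1) over the 42 granulosa libraries, which differ in genotype, age and depth. These values describe the libraries and carry no test. Lgr5 was most like Esr2 itself (r = 0.727, or 0.395 after group means were removed), then Dixdc1 (0.700, or 0.453), Vegfc (0.698, or 0.374), Rusc1 (0.683, or 0.397) and Stom (0.680, or 0.572). Lgr6 was most like Dtna (0.868, or 0.396 with group means removed), Ank3 (0.854, or 0.491), S100a4 (0.841, or 0.490), Thrb (0.834, or 0.0824) and Bex1 (0.833, or 0.545). All of these values were lower within groups, and the groups include the genotypes by which both receptors were chosen. For Lgr4 the closest were Ube2d3 (0.836), Alg11 (0.826) and Mob4 (0.824), which kept 0.870, 0.799 and 0.845 within groups. Lgr4 also had r = −0.693 with the summed granulosa markers, and −0.635 within groups.

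Wnt4 was most like Phf20l1 (0.828), Pde5a (0.819) and Pard3 (0.805), and Fzd1 most like Nectin3 (0.767), Senp5 (0.767) and Ptpn12 (0.766). Sfrp4 was closest to Tsc22d1 (0.797), Glul (0.797) and Pla1a (0.777), and Znrf3 to Dpysl4 (0.842), Hap1 (0.834) and Ccdc157 (0.816). The 12 values of these 4 genes were 0.629 to 0.812 within groups. Among the 9 of the 10 genes with a row in every granulosa table (all but Rspo1), the pairs with the highest r in size over the same 42 libraries were Wnt4 with Sfrp4 (r = −0.701, or −0.635 within groups), Lgr6 with Znrf3 (0.671, or 0.645) and Wnt4 with Fzd1 (0.652, or 0.545).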

How the data were processed

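Smart-seq2 RNA libraries of granulosa cells and oocytes were given as 1 table per cell type and age. Each holds expected counts per gene, deposited by the authors; 12.8 to 15.2% of values were not whole, to a tolerance of 0.001. The submitters' processing notes name STAR, Partek and DESeq2 and the build mm10, with no versions or roles. The 10 genes and all gene lists were chosen with earlier results of these data known.

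CPM were taken over each library's total. Counts were rounded to whole numbers and fitted with edgeR 4.0.16 in R 4.3.3 (filterByExpr, TMM, robust quasi-likelihood F test, Benjamini-Hochberg adjustment over all tested genes, threshold 0.05, n as given for each group). Genotypes were compared inside each table, ages and differences in knockout effect in 1 fit of the 6 groups of a cell type, and wild type granulosa cells with wild type oocytes in 1 fit per age. Lgr5 and Lgr6 were given no test in any granulosa contrast, which is stricter than first planned. Alternatives were size factors by relative log expression, DESeq2 1.42.0, no filter, fits of a single genotype and leaving out each library of a genotype comparison. A replicate block was added in the genotype comparisons. Leaving out libraries under 1000000 counts was chosen after seeing the data. In the fits over ages only libraries of 7-week granulosa cells, 7-week wild type oocytes and 6-month knockout oocytes were left out in turn. None was left out of the fits of granulosa cells against oocytes. The fits were tested on simulated counts.

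Other pathway genes were named where past a test, up to 8 per comparison by smallest p, and the genes most like each member were the 5 with the highest r for Lgr5 and Lgr6 and 3 for others of at least 5 CPM on average; those of Axin2 are not reported here. Exon lengths came from GENCODE vM21. A 7-week knockout oocyte library has a label that joins the numbers 4 and 5, and it was used as a replicate. Another library of that group has its counts labelled with 5, and none has counts labelled with 4 alone. The sample titles of the group name both a sample 4 and a sample 5. Whether the library that joins 4 and 5 and the library labelled 5 are independent is not known. Same-numbered 7-week knockout and wild type oocyte libraries had correlations of 0.543, 0.118, 0.154 and 0.243 for the 4 shared numbers, with group means removed. Replicates 1 and 5 matched best with their own number, and replicates 2 and 3 did not. Replicate 1 also did so in 4-week and 6-month granulosa cells (0.468 and 0.395) and 4-week oocytes (0.161). It did not in 7-week granulosa cells (0.256), where replicate 3 did (0.234), or in 6-month oocytes (0.067). The labels name no pairs. The tests above are unpaired, and the numbers entered only the replicate block.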

Additional observations from a re-analysis of the deposited data

Results flagged for a closer look

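Of 64 sets of a gene and a group of 4 to 10 libraries, 7 had a highest library that stood apart from its group by Dixon's 95% criterion, which chance alone meets in about 1 in 20 groups. In wild type granulosa cells of 4 weeks, replicate 1 had 368 CPM of Lgr4, the next library having 164 CPM, and replicate 3 had 765.3 CPM of Wnt4, the next having 234 CPM. In knockout granulosa cells of 7 weeks, replicate 3 had 337 CPM of Wnt4 and 18.0 CPM of Rnf43, with the next libraries at 148.4 and 5.49 CPM, and replicate 5 had 5.405 CPM of Rspo1, with the next at 0.873 CPM. In knockout granulosa cells of 6 months, replicate 4 had 3.578 CPM of Lgr5, the next having 1.17 CPM. In wild type oocytes of 7 weeks, replicate 1 had 510.5 CPM of Axin2, the next having 265.5 CPM.

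The knockout effect on 5 of the named pathway genes differed between granulosa cells of 6 months and 7 weeks by edgeR's test of the difference. The log2 differences were 1.745 for Porcn, −1.483 for Csnk1e, −1.732 for Tnks2, −1.531 for Usp34 and −2.296 for Fst.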

How the results depend on the processing

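Of 63 single-gene log2 differences, none of the 20 past the test changed sign under any alternative. Of the others, 11 changed sign in at least 1 alternative, all of them at most 0.392 in size: between knockout and wild type, Fzd1 and Znrf3 in granulosa cells of 4 weeks, Fzd1, Lgr4 and Wnt4 in those of 7 weeks, Lgr4 in those of 6 months, Axin2 in oocytes of 4 and 7 weeks, and Lgr4, Lgr5 and Znrf3 in those of 6 months. With the replicate block Lgr4 in 7-week granulosa cells was at −0.231. The number of other Wnt pathway genes called in granulosa cells at 4 weeks was 1, and 0 with size factors by relative log expression, 3 with DESeq2, 0 with no filter and 0 to 2 when a library was left out. At 7 weeks it was 0, and 4 with DESeq2 and 0 to 1 with a library left out (1 without knockout replicate 4). At 6 months it was 13, and 9 to 19 with a library left out. With the replicate number as a block, in fits of the numbers that both genotypes share, the counts were 2 at 4 weeks and 7 at 6 months. The block moved no other count of members or pathway genes by over 1.5 times, that of the 7-week oocytes included. In no table did every library correlate best with its own number. In 7-week oocytes the pathway count was 0, and 0 to 1 with a library left out (1 without wild type replicate 3). Calls on differences in knockout effect in granulosa cells numbered 17 over the 3 pairs of ages, and 9 to 21 with a 7-week library left out. Member calls over the 3 age contrasts numbered 4 in knockout granulosa cells (3 to 4 with a 7-week library left out) and 1 in wild type granulosa cells. In oocytes they numbered 2 in knockouts (1 to 2 with a 7-week wild type or 6-month knockout library left out) and 4 in wild types. Libraries of the other groups were not left out of these fits over ages. With the replicate block Csnk1e and Usp34 no longer passed at 6 months. Leaving out the granulosa libraries under 1000000 counts kept the 6-month count at 13. Low depth limits Lgr5, Rspo1, Lgr6 in wild type granulosa cells and the oocyte levels of every gene but Axin2. The causes of these changes were not tested.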
